A study of Danio rerio with 9 samples.

Results

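The pronephros is the first kidney of the zebrafish embryo, and 9 genes that mark its parts were followed through 3 morpholino groups. They were chosen by name, as the rows of the count table whose symbol was pax8, cdh17, atp1a1a.4, slc20a1a, wt1a, wt1b, nphs1, podxl or osr1. All 9 were present among the 24614 genes of the table. RNA had been taken from whole embryos injected with a dhps, an eif5a1/2 or a control morpholino, with 3 libraries in each group. Embryos were taken at 24 hours after fertilization by the series design, and at 24 hours after injection by the treatment note of the samples. Morpholinos are antisense oligomers that block translation or splicing of a transcript. Here one group targets dhps, the enzyme that starts hypusination of the translation factor eIF5A, and another targets the eIF5A genes eif5a1/2. The labels name no strain, dose, morpholino sequence or number of embryos per library. Nothing in the labels says that the libraries came from separate clutches, so p-values measure the spread between these libraries, which may be technical.

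The zebrafish pronephros arises from intermediate mesoderm as a pair of tubules joined to a fused glomerulus. Podocytes wrap the capillaries of the glomerulus and form its slit diaphragm, while the tubule cells take up and secrete ions and solutes from the filtrate. At this stage the tubule is already patterned along its length, and the glomerulus is still assembling. The 9 genes cover the tubule (pax8, cdh17, atp1a1a.4 and slc20a1a), the podocytes (wt1a, wt1b, nphs1 and podxl) and the mesoderm from which both arise (osr1).

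The libraries held 15952644 to 17482536 reads in genes, and all 9 genes passed the filter on low counts. The eif5a transcript had 213 to 238 CPM (counts scaled to a common library size, with TMM factors) in eif5a1/2 libraries, against 1055 to 1116 in dhps and 1168 to 1467 in control libraries. The eif5a2 transcript had 147 to 283 CPM in eif5a1/2 and 215 to 368 CPM in control libraries, which overlap. The dhps transcript had 8.27 to 10.3 CPM in dhps libraries and 13.0 to 15.7 CPM in control libraries. Its log2 difference of -0.62 had an adjusted p of 0.0485 by edgeR's quasi-likelihood test and held in 2 of 9 fits on 8 libraries, those without eif5a1/2 2 or control 2. Libraries also differed by transcript length in a way that crossed the groups. The length slope, the change in log2 CPM per log2 unit of relative transcript length, was 0.0374 to 0.133 in the dhps libraries, 0.136 in eif5a1/2 2 and 0.0622 in control 2. It was -0.127 and -0.0732 in eif5a1/2 1 and 3 and -0.0919 and -0.115 in control 1 and 3. So eif5a1/2 2 and control 2 lay on the side of the dhps libraries, and every dhps library lay on that side. The first principal component of log2 CPM, with 62.6% of the variance, divided the libraries in the same way. It was -59.2 to -24.4 on the side of the dhps libraries and 21.4 to 72.6 on the other. The TMM factors were 1.092 to 1.239 and 0.7576 to 0.9531 on these sides.

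No pronephros gene was called changed by edgeR in any comparison, at an adjusted p under 0.05. In dhps against control embryos 0 of 9 were called, where 1.33% of the 17031 genes tested were. In eif5a1/2 against control embryos 0 of 9 were called, where 0.153% of genes were, and in eif5a1/2 against dhps embryos 0 of 9, where 1.83% were. At an unadjusted p under 0.05 the counts were 3, 1 and 2 of 9, beside 19.7%, 9.10% and 14.6% of all genes. DESeq2, which gives no adjusted p to some genes with few reads, called 1 of 5 in dhps against control embryos, atp1a1a.4, beside 7.47% of all genes with an adjusted p. It called 0 of 7 in eif5a1/2 against control embryos, beside 1.40%, and 0 of 9 in eif5a1/2 against dhps embryos, beside 4.77%. Limma-voom called 0 of 9 in each of the 3 comparisons, beside 1.21%, 0.117% and 1.73% of all genes. With eif5a1/2 and control libraries fitted alone, edgeR called 351 genes with same-numbered libraries paired and 5 without the pairing, and 0 of 9 either way. That pairing was chosen after seeing the data. It joins eif5a1/2 2 and control 2, the libraries of these groups with a positive length slope, so pair and slope are partly confounded. Over all 3 groups edgeR called 14 genes with the pairing and 26 without. The comparisons with control share the control libraries, and those with dhps share the dhps libraries.

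**Figure D1:**
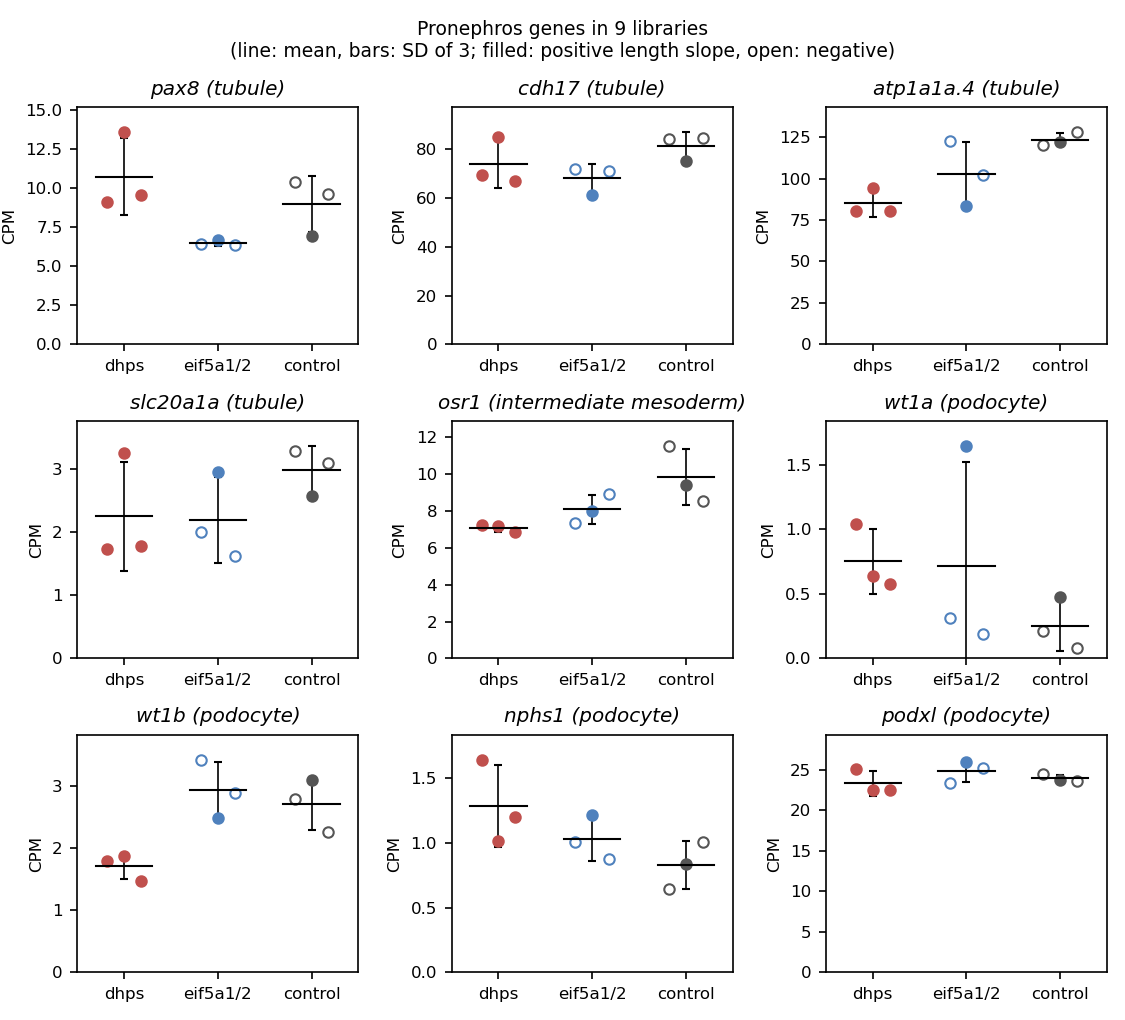
CPM of each pronephros gene in the 9 libraries, with dhps, eif5a1/2 and control from left to right and every axis starting at 0. Points are libraries (filled for a positive length slope, open for a negative one), lines are means and bars are the SD of 3 libraries, and the lower bar of wt1a in eif5a1/2 passes below 0. For atp1a1a.4 the dhps points lie at 80.2 to 94.4 CPM and the control points at 120.5 to 128 CPM.

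The pronephros genes differed widely in level. On the TPM scale, which divides reads by length, the sodium pump gene atp1a1a.4 stood highest, at 24.7 ± 1.63 TPM in dhps, 23.5 ± 3.92 TPM in eif5a1/2 and 24.1 ± 7.60 TPM in control embryos (SD, n = 3 each). The cadherin gene cdh17 followed at 20.8 ± 2.11, 15.4 ± 4.08 and 15.2 ± 3.87 TPM. These 2 tubule genes overlapped in control libraries and did not overlap in the dhps or the eif5a1/2 libraries. Below them came podxl, osr1 and pax8, whose ranges overlapped from neighbour to neighbour in all 3 groups and whose means ran from 2.4 to 5.19 TPM. The genes wt1b and slc20a1a overlapped as the next pair, at means of 0.653 to 1.04 TPM. The lowest were nphs1 and wt1a, at 0.123 ± 0.0551 and 0.113 ± 0.121 TPM in control embryos, so the podocyte set held both the weakest signals and, in podxl, one of the stronger ones.

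Of the tubule genes, atp1a1a.4 (gene ID 64615) had the smallest p in dhps against control embryos. It encodes an alpha subunit of the sodium-potassium pump, which drives ion transport across the tubule wall. It had 80.4, 94.4 and 80.2 CPM in dhps libraries 1, 2 and 3 and 122, 83.4 and 102 CPM in eif5a1/2 libraries 1, 2 and 3. In control libraries 1, 2 and 3 it had 120.5, 122 and 128 CPM. All dhps libraries lay below all control libraries, and eif5a1/2 2 was the low one of its group. The log2 difference in dhps against control embryos was -0.54 ± 0.15 (SE), with a 95% interval of -0.87 to -0.20 and an adjusted p of 0.121 by edgeR's quasi-likelihood test. It was called by DESeq2 at -0.53 (adjusted p = 0.02), by edgeR without eif5a1/2 2 at -0.54 (adjusted p = 0.0422) and by edgeR without both control 2 and eif5a1/2 2 (adjusted p = 0.00385). That last fit called far more genes than the main fit. In it all dhps libraries have positive length slopes and all others negative ones, so group and slope cannot be told apart. Over the other settings the adjusted p of atp1a1a.4 ran from 0.0544 to 0.42, with no call. The authors' deposited table lists it at -0.54 with a q-value of 0.00133. On the TPM scale, whose scaling is set by each library's own total, the groups overlapped, with 22.9 to 26.0 TPM in dhps and 18.9 to 32.8 TPM in control libraries. With no TMM factor, the log2 difference was -0.17 beside a median of 0.37 over all genes. In eif5a1/2 against control embryos the log2 difference of atp1a1a.4 was -0.27 ± 0.15 (adjusted p = 0.661), with overlapping groups.

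A comparison inside each library does not depend on that scaling. The gene atp1a1a.4 stands in a row with atp1a1a.1, atp1a1a.2, atp1a1a.3 and atp1a1a.5 in the NCBI table of the assembly GRCz12tu, where the only other gene within the row is a long noncoding RNA. These alpha subunit genes are close copies that can share reads, and the count of atp1a1a.4 was not a whole number in any library, so the split of reads among them is an estimate. Of the counts of the 5 genes, atp1a1a.4 took 19.0%, 19.6% and 19.0% in dhps libraries 1, 2 and 3 and 26.6%, 19.4% and 23.4% in eif5a1/2 libraries 1, 2 and 3. It took 26.8%, 26.6% and 27.2% in control libraries 1, 2 and 3. The dhps and control libraries did not overlap in this share, and control 2, with a positive length slope like the dhps libraries, stood with the other controls. Among the 5 libraries with a positive slope the share was thus 19.0% to 19.6% in dhps, 19.4% in eif5a1/2 2 and 26.6% in control 2. Within eif5a1/2 the share fell as the slope rose, from 26.6% at -0.127 and 23.4% at -0.0732 to 19.4% at 0.136. The part of the slope in the share was not tested. The mean difference in the share was -7.63 percentage points in dhps against control and -3.72 points in eif5a1/2 against control. The 95% Clopper-Pearson intervals of the single shares were at most 2.26 points wide and cover counting error only. This share was set up after its values were seen, so it is a description with no test, and it does not say which gene of the row moved.

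**Figure D2:**
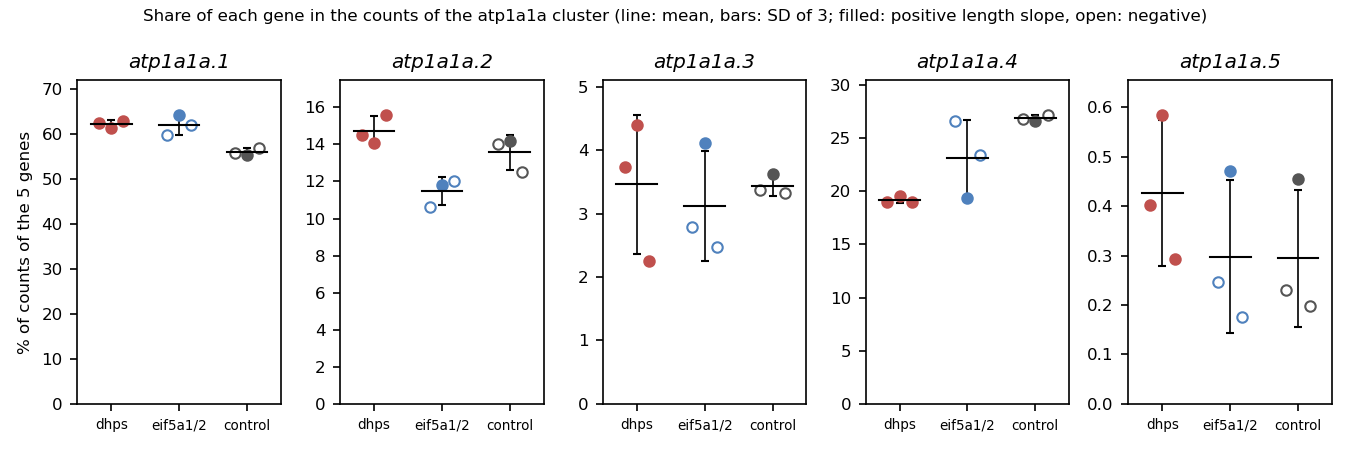
Share of each of the 5 atp1a1a genes in their summed counts, in percent, per library, with dhps, eif5a1/2 and control from left to right. Lines are means, bars are the SD of 3 libraries, and open points are libraries with a negative length slope. The atp1a1a.4 share lies at 19.0% to 19.6% in dhps and 26.6% to 27.2% in control libraries, while the atp1a1a.1 share lies at 61.3% to 62.8% in dhps and 55.2% to 56.8% in control libraries.

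None of the other genes of the row was called by edgeR in dhps against control embryos. The most abundant, atp1a1a.1, had 274 ± 18.6 CPM in dhps and 257 ± 8.97 CPM in control embryos (log2 0.10 ± 0.11, adjusted p = 0.60 by edgeR). The gene atp1a1a.2 had 65.0 ± 3.60 CPM in dhps and 62.2 ± 3.05 CPM in control embryos (log2 0.06 ± 0.10, adjusted p = 0.699). In eif5a1/2 embryos it had 50.6 ± 1.77 CPM, below every control library, with a log2 difference of -0.30 ± 0.10 (adjusted p = 0.38). For atp1a1a.3 and atp1a1a.5 the log2 differences in dhps against control embryos were -0.03 and 0.47 (adjusted p = 0.951 and 0.554). The beta subunit genes atp1b1a and atp1b1b, partners of the alpha subunit in the pump, stood at 0.10 and 1.06 (adjusted p = 0.621 and 0.327).

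The paired-box factor gene pax8 (60637), needed with pax2a to set up the pronephros and also used in the ear and the thyroid, separated the knockdowns from each other more than from control. It had 9.08, 13.6 and 9.53 CPM in dhps libraries 1, 2 and 3, and 6.42, 6.66 and 6.34 CPM in eif5a1/2 libraries 1, 2 and 3. In control libraries 1, 2 and 3 it had 10.4, 6.92 and 9.63 CPM. The eif5a1/2 libraries lay below all dhps and all control libraries and close to each other, on both sides of the length axis. The log2 difference of eif5a1/2 against dhps embryos was -0.73 ± 0.20 (95% interval -1.17 to -0.28, adjusted p = 0.119 by edgeR), and it was -0.81, with an adjusted p of 0.011, once the length slope entered the fit. The fit with the slope called more genes than the main fit. All dhps libraries and eif5a1/2 2 had positive slopes and eif5a1/2 1 and 3 negative ones, so slope and group are partly confounded. Against control the log2 differences of pax8 were -0.47 ± 0.20 in eif5a1/2 embryos (adjusted p = 0.535) and 0.26 ± 0.20 in dhps embryos (adjusted p = 0.436). Its paralog pax2a, of the same kind of factor, had 19.1 ± 1.40 CPM in dhps, 14.0 ± 0.311 CPM in eif5a1/2 and 14.5 ± 1.47 CPM in control embryos. The log2 difference of pax2a was 0.40 ± 0.11 in dhps against control (adjusted p = 0.129) and -0.44 ± 0.11 in eif5a1/2 against dhps embryos (adjusted p = 0.093).

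The gene cdh17 (378452) encodes a cadherin that marks the tubule and duct along their whole length. It had 69.7, 85.1 and 67.0 CPM in dhps libraries 1, 2 and 3, and 72.2, 61.2 and 71.1 CPM in eif5a1/2 libraries 1, 2 and 3. In control libraries 1, 2 and 3 it had 84.5, 75.1 and 84.8 CPM. The dhps and control libraries overlapped through dhps 2, while the eif5a1/2 libraries lay below the lowest control. The log2 differences against control were -0.14 in dhps embryos (95% interval -0.43 to 0.15, adjusted p = 0.517) and -0.26 in eif5a1/2 embryos (95% interval -0.55 to 0.03, adjusted p = 0.609 by edgeR). In whole embryos, fewer tubule cells and less RNA per tubule cell cannot be told apart.

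For slc20a1a (406458), a sodium-dependent phosphate transporter gene, the reads were few, at 26 to 63 per library. It had 1.74, 3.26 and 1.78 CPM in dhps libraries 1, 2 and 3, and 2.01, 2.95 and 1.63 CPM in eif5a1/2 libraries 1, 2 and 3. Control libraries 1, 2 and 3 had 3.29, 2.57 and 3.11 CPM. One library of each knockdown group reached into the control range. The log2 differences against control were -0.40 ± 0.32 in dhps and -0.43 ± 0.33 in eif5a1/2 embryos (adjusted p = 0.46 and 0.752 by edgeR), with intervals of -1.13 to 0.32 and -1.16 to 0.30. Its paralog slc20a1b, at 139 CPM in dhps and 122 CPM in control embryos on average, had a log2 difference of 0.18 (adjusted p = 0.405).

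The zinc finger factor gene osr1 (450059), which acts in early kidney mesoderm, had 7.25, 7.20 and 6.86 CPM in dhps libraries 1, 2 and 3. It had 7.35, 8.02 and 8.91 CPM in eif5a1/2 libraries 1, 2 and 3, and 11.5, 9.44 and 8.54 CPM in control libraries 1, 2 and 3. The dhps libraries lay below all libraries of the other groups, and eif5a1/2 3 overlapped with control. The log2 difference was -0.47 ± 0.15 in dhps against control embryos (95% interval -0.80 to -0.14, adjusted p = 0.153 by edgeR) and -0.28 ± 0.15 in eif5a1/2 against control embryos (adjusted p = 0.629). Its paralog osr2 had a log2 difference of -0.52 ± 0.31 in dhps against control embryos (adjusted p = 0.34), and in eif5a1/2 embryos of -0.01 ± 0.30 (adjusted p = 0.996).

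The Wilms tumour factor paralogs wt1a (30245) and wt1b (568416) act in podocyte formation, and their signals in dhps embryos had opposite signs. The wt1a gene had 21, 12 and 11 reads in dhps libraries 1, 2 and 3, 4, 35 and 3 reads in eif5a1/2 libraries 1, 2 and 3, and 3, 9 and 1 reads in control libraries 1, 2 and 3. Its highest value, 1.64 CPM in eif5a1/2 2, and its lowest, 0.0777 CPM in control 3, had counting intervals of 24.4 to 48.7 and 0.0253 to 5.57 reads (exact Poisson, 95%). Within each group the library with the largest length slope had the most wt1a reads, and the part of that slope in the level was not tested. The log2 difference in dhps against control embryos was 1.46 ± 0.84, with a 95% interval of -0.43 to 3.34 (adjusted p = 0.335 by edgeR). Set against control, eif5a1/2 embryos had a log2 difference of 1.45 ± 0.84 (adjusted p = 0.68) and rested on 1 library, since without eif5a1/2 2 it was -0.15. Only 4 libraries held at least 10 reads of wt1a, so it passed the filter on low counts through the libraries in which it was high.

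The wt1b gene had 1.79, 1.87 and 1.47 CPM in dhps libraries 1, 2 and 3, and 3.40, 2.49 and 2.89 CPM in eif5a1/2 libraries 1, 2 and 3. In control libraries 1, 2 and 3 it had 2.79, 3.09 and 2.25 CPM. All dhps libraries lay below all others, and the eif5a1/2 and control libraries overlapped. The log2 difference of wt1b was -0.67 ± 0.23 in dhps against control embryos (95% interval -1.20 to -0.15, adjusted p = 0.184 by edgeR) and 0.77 ± 0.23 in eif5a1/2 against dhps embryos (95% interval 0.25 to 1.29, adjusted p = 0.154). Between eif5a1/2 and control embryos it was 0.10 ± 0.23 (adjusted p = 0.911). Summed, the wt1 paralogs had 2.04 to 2.83 CPM in dhps, 3.08 to 4.13 CPM in eif5a1/2 and 2.33 to 3.56 CPM in control libraries, so the dhps and control ranges of the sum overlapped.

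The gene nphs1 (692352) encodes nephrin, the adhesion protein of the slit diaphragm. It had 1.64, 1.01 and 1.20 CPM in dhps libraries 1, 2 and 3, 1.01, 1.22 and 0.879 CPM in eif5a1/2 libraries 1, 2 and 3, and 0.644, 0.839 and 1.01 CPM in control libraries 1, 2 and 3. The dhps libraries lay above the controls, but dhps 2 and control 3 round to the same value, and the libraries of these groups held 9 to 33 reads. The log2 difference was 0.63 ± 0.32 in dhps against control embryos (95% interval -0.10 to 1.36, adjusted p = 0.299 by edgeR) and 0.32 ± 0.33 in eif5a1/2 against control embryos (adjusted p = 0.799).

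For podxl (563365), which encodes podocalyxin, the sialomucin of the podocyte surface, the interval was the tightest of the 9 genes. It had 25.1, 22.5 and 22.5 CPM in dhps libraries 1, 2 and 3, 23.4, 25.9 and 25.2 CPM in eif5a1/2 libraries 1, 2 and 3, and 24.5, 23.8 and 23.6 CPM in control libraries 1, 2 and 3. All 3 groups overlapped. The log2 differences against control were -0.04 in dhps embryos (95% interval -0.25 to 0.18) and 0.05 in eif5a1/2 embryos (95% interval -0.16 to 0.27), with adjusted p of 0.837 and 0.882 by edgeR. In mammals podocalyxin is also found on vessels. Of 11 tested vessel genes 0 were called, and the summed level of the 12 listed ones was 138.6 to 150 CPM in dhps, 144.9 to 176.6 CPM in eif5a1/2 and 138.1 to 154.6 CPM in control libraries. In eif5a1/2 against control embryos 10 of the 11 had a positive log2 difference, with a median of 0.165. For 3 of the 11 every eif5a1/2 library lay above every control, as for 5.78% of all genes. In dhps against control embryos 4 were positive and 7 negative. The vessel receptor gene kdrl, the one with the smallest p, had a log2 difference of 0.41 in eif5a1/2 against control embryos (adjusted p = 0.381).

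**Figure D3:**
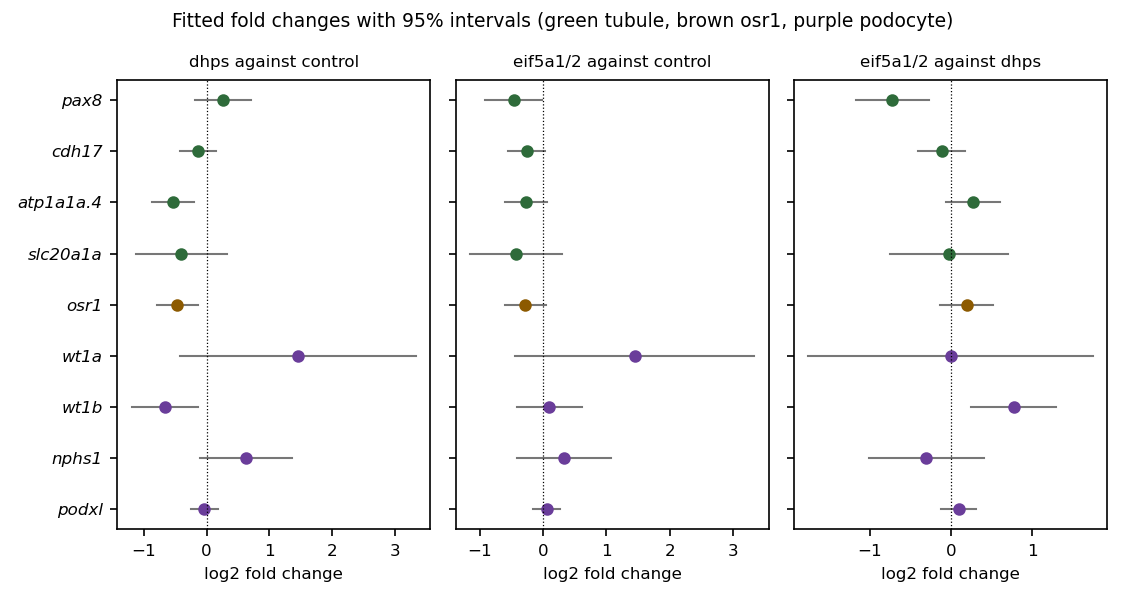
Fitted log2 fold changes of the 9 genes in the 3 comparisons, first-named group over the second, with points for the estimate and lines for the 95% interval. In dhps against control the intervals of atp1a1a.4, osr1 and wt1b lie below 0, in eif5a1/2 against dhps that of pax8 lies below 0 and that of wt1b above it, and the widest intervals are those of wt1a.

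Groups did not overlap for 5 of 9 genes in dhps against control embryos, where 30.9% of all genes tested did not. Lower in every dhps library were atp1a1a.4, wt1b and osr1, 3 of 9 beside 15.7% of genes, and higher were wt1a and nphs1, 2 of 9 beside 15.2%. Of these, wt1a had passed the low-count filter mainly through the dhps libraries, so its place above control is partly set by that filter. The count was 2 of 9 for eif5a1/2 against control embryos, beside 12.4% of genes. Both, pax8 and cdh17, were lower, where 6.65% of genes were, and 0 of 9 were higher, where 5.78% were. For eif5a1/2 against dhps embryos it was 3 of 9, beside 20.9%. Here pax8 was lower, beside 10.1% of genes, and wt1b and osr1 were higher, beside 10.8%.

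Set against each other, the median tubule gene lay below control in both knockdowns, and the median podocyte gene lay above it in eif5a1/2 embryos but in dhps embryos only with wt1a included. No gene of either set was called. In dhps embryos the median log2 difference from control was -0.27 over the 4 tubule genes and 0.30 over the 4 podocyte genes, with 0.00 over all genes. In eif5a1/2 embryos it was -0.35 and 0.21, with 0.01 over all genes, and all 4 tubule values were negative and all 4 podocyte values positive. Of these podocyte values that of podxl was only 0.05, and that of wt1a fell from 1.45 to -0.15 without eif5a1/2 2. That of wt1b ran from -0.345 to 0.321 over the settings. With no TMM factor, the tubule median in dhps embryos was 0.10 and the podocyte median 0.67, on the same sides of the median of all genes, 0.37. The podocyte median in dhps embryos was -0.03 under the stricter filter, which leaves out wt1a. Per library, the mean log2 CPM of the tubule genes exceeded that of the podocyte genes by 2.48, 3.31 and 2.89 in dhps libraries 1, 2 and 3, by 2.90, 2.35 and 2.95 in eif5a1/2 libraries and by 3.58, 2.99 and 3.69 in control libraries. The means were 2.90 ± 0.41 in dhps, 2.73 ± 0.34 in eif5a1/2 and 3.42 ± 0.37 in control embryos (SD, n = 3 each). The eif5a1/2 libraries lay below the lowest control, and the dhps libraries overlapped with the controls. Without wt1a the eif5a1/2 libraries stood at 2.05, 2.01 and 2.00 and the control libraries at 2.70, 2.29 and 2.60, which did not overlap. The dhps libraries then stood at 2.01, 2.74 and 2.29 and spanned that gap.

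**Figure D4:**
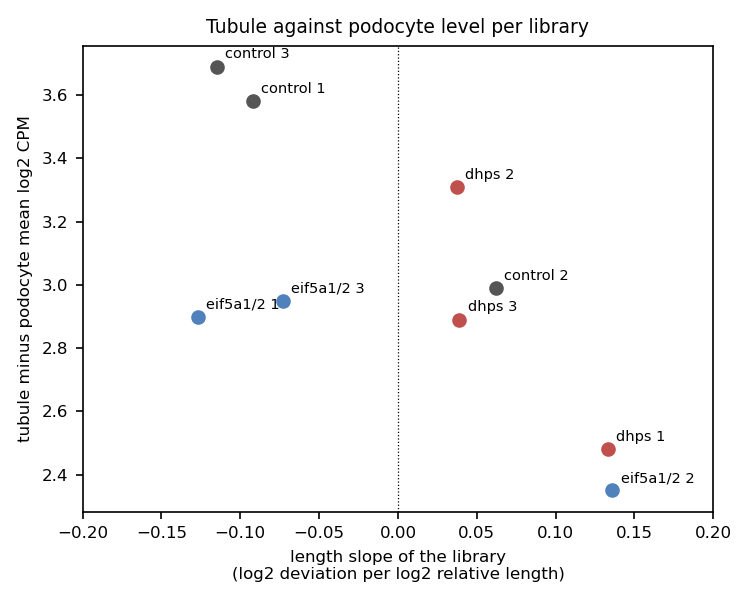
Mean log2 CPM of the 4 tubule genes minus that of the 4 podocyte genes (y) against the length slope (x) of each of the 9 libraries, coloured by group. The lowest values, 2.35 in eif5a1/2 2 and 2.48 in dhps 1, belong to the libraries with the largest slopes, and the highest, 3.58 and 3.69, to control 1 and 3.

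In each group the library with the largest length slope had the smallest difference between the sets, and these were dhps 1, eif5a1/2 2 and control 2. The tubule genes had a median length percentile of 67.2 among the genes tested and the podocyte genes one of 63.7, with wt1a at 34.1. The part of the slope in the difference between the sets was not tested. Among the 5 libraries with a positive slope the difference was 2.48 to 3.31 in dhps, 2.35 in eif5a1/2 2 and 2.99 in control 2, and among the other 4 it was 2.90 and 2.95 in eif5a1/2 and 3.58 and 3.69 in control libraries.

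Wider lists gave other genes used in the kidney, by role. The RNA came from whole embryos, and the part of other tissues in the levels of these genes was not tested. Of 14 tested transcription factor genes of the tubule, 0 were called in any comparison, and their median log2 difference was 0.35 in dhps and 0.04 in eif5a1/2 against control embryos. The genes with the smallest p had differences of both signs, pax2a above among them. The factor gene irx1a, of the Iroquois family of patterning genes, had 24.1 ± 2.03 CPM in dhps, 34.1 ± 10.5 CPM in eif5a1/2 and 44.4 ± 13.6 CPM in control embryos, with a log2 difference of -0.88 ± 0.26 in dhps against control (adjusted p = 0.139 by edgeR). For irx1a in this comparison the authors deposited -0.88 with a q-value of 0.00701. The tubule regulator gene hnf1ba stood at 0.21 in dhps against control and -0.33 in eif5a1/2 against dhps embryos (adjusted p = 0.281 and 0.173). Of 13 tested genes of transport and uptake, 0 were called, with medians of 0.25 in dhps and 0.00 in eif5a1/2 against control embryos. The bicarbonate cotransporter gene slc4a4a had 15.0 ± 1.51 CPM in dhps and 9.17 ± 3.34 CPM in control embryos (log2 0.70 ± 0.27, adjusted p = 0.215). The anion exchanger gene slc4a2a and the gene slc12a3, for the sodium chloride cotransporter of the distal tubule, stood at -0.48 and -0.47 in eif5a1/2 against dhps embryos (adjusted p = 0.134 and 0.258). Of 9 genes of multiciliated cells and cilia 0 were called. The ciliation factor gene foxj1a stood at 0.32 in dhps against control (adjusted p = 0.236). The genes etv5a and etv5b, for ETS family factors, stood at -0.35 and 0.04 in dhps against control (adjusted p = 0.25 and 0.847). In eif5a1/2 against control etv5b stood at 0.24 (adjusted p = 0.517), with every eif5a1/2 library above every control, as for 5.78% of all genes.

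Of 17 further podocyte genes tested, 1 rose, 0 fell and 16 did not pass in dhps against control embryos, where 1.33% of all genes were called. The one that rose was cd2ap, for an adaptor that ties nephrin to the actin skeleton and acts in many other cells. It had 48.4 ± 0.247 CPM in dhps, 32.3 ± 5.29 CPM in eif5a1/2 and 30.2 ± 2.36 CPM in control embryos (SD, n = 3 each). Its log2 change in dhps against control was 0.68 ± 0.13, with an adjusted p of 0.0376 by edgeR, and in eif5a1/2 against dhps embryos it stood at -0.58 ± 0.13 with an adjusted p of 0.0591. With 1 library left out at a time, the call in dhps against control held in 3 of 9 fits, those without eif5a1/2 1, eif5a1/2 2 or control 2. For cd2ap the authors deposited 0.68 (q-value 3.36e-05) in dhps against control and -0.57 (q-value 0.0285) in eif5a1/2 against dhps. At an unadjusted p under 0.05 by edgeR, 2 of the 17 were higher and 3 lower in dhps against control, beside 19.7% of all genes. The median of these podocyte genes was 0.33 in dhps and 0.08 in eif5a1/2 against control embryos, and their median length percentile was 84.0. That of the tubule transcription factors was 59.3, with a median of 0.35 in dhps, and that of transport and uptake 77.3, with 0.25. The part of length in these medians was not tested.

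**Figure D5:**
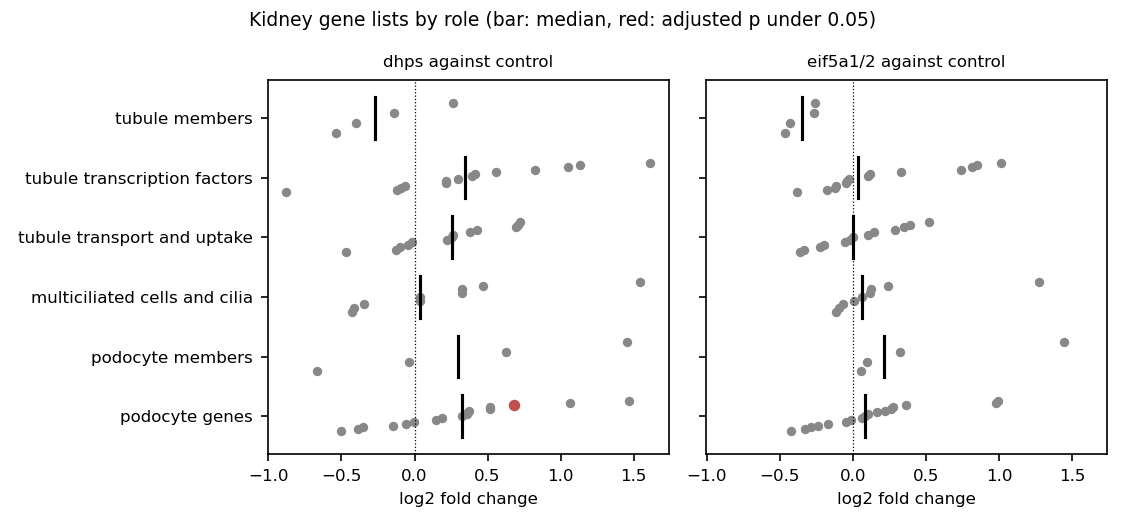
Log2 fold changes, in whole embryos, of genes listed for the kidney by role, in dhps and in eif5a1/2 against control. Each gene tested has a point, bars are medians and red is for an adjusted p under 0.05. The medians of the further tubule lists lie at 0.35 and 0.25 in dhps against control, while that of the 4 tubule markers lies at -0.27, and the red point is cd2ap.

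Several of the 9 genes are also used elsewhere in the embryo, and lists for those sites were read beside them. Of 7 tested genes of the otic vesicle, where pax8 acts, 1 rose in eif5a1/2 against dhps embryos, beside 1.83% of all genes called. It was the otolith matrix gene otomp, at 6.26 ± 0.519 CPM in eif5a1/2 and 3.90 ± 0.0929 CPM in dhps embryos (log2 0.68, adjusted p = 0.0498 by edgeR), a call that held without eif5a1/2 2 and ended without any other single library. The summed level of the 9 listed ear genes was 797 to 887 CPM in dhps, 706 to 898 CPM in eif5a1/2 and 905 to 1063 CPM in control libraries. Its largest terms were sparc, at means of 371 CPM in dhps and 501 CPM in control, and col2a1a, at 294 and 354 CPM. The gene oc90 stood the other way, at 56.5 and 36.1 CPM. In whole-embryo RNA this sum cannot be read as the level of the ear alone. Of the 7 tested, 2 had a positive and 5 a negative log2 difference in dhps against control. The authors deposited q-values of 0.00196 for oc90 and 0.0189 for sparc in that comparison. For the thyroid, 3 of 6 genes were tested and 0 called, and the hormone synthesis gene tpo had a mean of 0.0178 CPM in dhps and of 0 in control embryos. The gene slc5a5, at means of 1.44 CPM in dhps, 0.645 in eif5a1/2 and 0.758 in control, was among those tested. It stood at 0.92 in dhps against control and -1.16 in eif5a1/2 against dhps (adjusted p = 0.322 and 0.337 by edgeR). In dhps against control nkx2.4b and hhex stood at 0.06 and -0.003 (adjusted p = 0.946 and 0.996 by edgeR). At the boundary of midbrain and hindbrain 0 of 6 genes were called, and in dhps against control embryos 4 had a positive and 2 a negative log2 difference. The genes wnt1, at means of 1.31 CPM in dhps and 0.272 CPM in control, and fgf8a stood at 2.15 and 0.18 (adjusted p = 0.253 and 0.384 by edgeR). The gene en1b stood at -0.53 in dhps against control embryos (adjusted p = 0.0603). For en1b in this comparison the authors deposited a q-value of 0.0449. Of the skin ionocytes, which also use sodium pumps, 0 of 7 genes were called, with ca2 at -0.43 in eif5a1/2 against control and -0.48 against dhps embryos (adjusted p = 0.314 and 0.0963). In each of these comparisons 4 of the 7 were positive and 3 negative. There trpv6 stood at 0.78 and 0.29 (adjusted p = 0.585 and 0.757 by edgeR) and foxi3a at 0.05 and 0.24 (adjusted p = 0.919 and 0.437 by edgeR). Of the epicardium, where wt1 genes act, 0 of 3 genes were called, with tcf21, which is also a podocyte gene, at -0.51 in dhps against control embryos (adjusted p = 0.252). The other epicardial genes, tbx18 and aldh1a2, had the opposite sign there, at 0.524 and 0.175 (adjusted p = 0.46 and 0.387 by edgeR). The part of these sites in the levels of the 9 genes was not tested.

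Over the 9 libraries, the genes whose log2 CPM was most like that of cdh17 were trabd, tab3 and hpca, with Pearson r of 0.977, 0.976 and 0.955. Those most like nphs1 were pla2g4aa, col27a1a and dag1, with r of 0.959, 0.938 and 0.927. None of these 6 genes was on the kidney lists. Libraries of 1 group and 1 length slope share these points, and the values describe 9 libraries only. Among the pronephros genes themselves, r ran from -0.812 between nphs1 and osr1 to 0.727 between atp1a1a.4 and wt1b, a tubule and a podocyte gene.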

How the data were processed

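The authors deposited expected counts and TPM per gene and library, per the file headers, and the reads had been processed against GRCz11, per the submitters' processing notes. For the aligner, counter, annotation and strand setting, no name is given in the sources used here. A further deposited table gives the authors' log2 fold changes, p-values and q-values, and −log10 q-values for dhps, per the file headers. From 91.39% to 93.95% of counts were whole (tolerance 1e-06), and they were rounded for the planned test.

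The fit was edgeR 4.0.16 in R 4.3.3: filterByExpr (17031 genes kept, holding at least 99.84% of reads), TMM, and the quasi-likelihood test on all 9 libraries in 3 groups with 6 residual degrees of freedom. The Benjamini-Hochberg adjustment ran over all genes tested. Log2 CPM used a prior count of 2. The SE came from the F statistic. DESeq2 1.42.0 and limma 3.58.1 (voom) were alternatives, and the procedure was tested on simulated data. Totals per library limit precision for genes with few reads.

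Relative length was taken from count over TPM. Of 127 listed symbols 124 matched, 3 by another name of the gene ID in the NCBI table of GRCz12tu. The members and lists were chosen with earlier results of these data known. Named genes were the 9 members, of each other list the called genes or otherwise up to 3 with the smallest p, the atp1a1a row and the 3 genes most like cdh17 and nphs1. The gene tpo was added after its values were seen. A result on 1 withheld item is not reported here. No 2 libraries of a group agreed within sampling noise. Same-numbered libraries of eif5a1/2 and control deviated together (r = 0.403, 0.76 and 0.318), and those of dhps and control did not (r = -0.337, -0.413 and 0.0988). The main fit used no pairs, and further fits treated the numbers as pairs on the data alone. However, eif5a1/2 1 correlated more with control 3 (0.597), and eif5a1/2 3 also with control 1 (0.26). The libraries eif5a1/2 2 and control 2, both with a positive length slope, also correlated with dhps 1 (0.503 and 0.482). Pair and slope are thus partly confounded.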

Additional observations from a re-analysis of the deposited data

How the results depend on the processing

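Read counts of wt1a, nphs1, wt1b and slc20a1a were low, and 3 libraries a group limit every interval. Library totals alone move the median of all genes to 0.37 in dhps against control and -0.19 in eif5a1/2 against dhps. There cdh17 and podxl stood at 0.23 and 0.33 in dhps against control, and podxl and osr1 at -0.10 and -0.007 in eif5a1/2 against dhps, each on the same side of that median as under TMM. Under these totals the genes called were 94, 13 and 138 in dhps against control, eif5a1/2 against control and eif5a1/2 against dhps, beside 226, 26 and 311, and the tubule and podocyte medians in dhps against control were 0.10 and 0.67. The stricter filter (1 CPM in 3 libraries) left 3 podocyte members with a median of -0.028 in dhps against control. With all 3 groups, the replicate block gave 14 genes in eif5a1/2 against control and 188 in eif5a1/2 against dhps. The pairing of eif5a1/2 and control alone, chosen after seeing the data, gave 351, and no member's call changed under either pairing. The compared groups alone gave 5 and 170 genes in eif5a1/2 against control and against dhps. DESeq2 gave 902, 206 and 811 genes and 1 member, atp1a1a.4, in dhps against control. An adjusted p under 0.01 left 65, 5 and 79 genes. Under limma-voom slc20a1a in eif5a1/2 against dhps was 0.036.

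With the length slope in the model, 875, 727 and 1402 of 17031 genes were called and 1 member, pax8, in eif5a1/2 against dhps, where the podocyte median was 0.27, slc20a1a 0.033 and wt1a 0.41. Among libraries with a positive slope, eif5a1/2 against control gave 49 genes, with slc20a1a at 0.17 and wt1b at -0.35. There, eif5a1/2 against dhps had a podocyte median of 0.32, with atp1a1a.4 at -0.054, slc20a1a at 0.36 and wt1a at 1.09. Those with a negative slope gave 106 genes in eif5a1/2 against control. Leaving out control 2 and eif5a1/2 2, chosen after seeing the data, gave 6295, 136 and 4858 of 17102 genes tested. It gave 3 members in dhps against control (atp1a1a.4 and osr1 lower, wt1a higher) and 3 in eif5a1/2 against dhps (pax8 lower, atp1a1a.4 and wt1b higher), with a podocyte median of -0.20. Among the libraries of this fit only those of dhps held at least 10 reads of wt1a, at 21, 12 and 11. The wt1a gene thus passed the low-count filter through the group in which it was high, so its call is partly set by that filter. All dhps libraries then have positive slopes and all others negative ones, so group and slope cannot be told apart. The cause of the other differences was not tested.

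Leaving out 1 library at a time gave 46 to 844, 5 to 19 and 73 to 864 genes, and 0 to 1 members in dhps against control (atp1a1a.4 without eif5a1/2 2). In eif5a1/2 against dhps the tubule median ran from -0.18 to 0.17, the podocyte median from -0.20 to 0.25, slc20a1a from -0.31 to 0.33 and wt1a from -1.60 to 0.42. In eif5a1/2 against control wt1a ran from -0.15 to 2.28 and wt1b from -0.03 to 0.20.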
